A study of Homo sapiens with 32 samples.

Results

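Enhancers and promoters that lie far apart on a chromosome can be brought together by chromatin loops, and a loop that ties the start of a gene to DNA outside all genes is the usual picture of such a contact. This account covers the loops of that form in 4 deposited loop lists from human HEK293 cells, an embryonic kidney cell line. A loop was included when exactly 1 of its 2 anchors, each 5 kb wide, contained a protein-coding gene's 5′ end, as GENCODE release 44 places it on hg38, and the other anchor overlapped no protein-coding gene body. The first is called the gene anchor below and the second the intergenic anchor, which may still carry a non-coding RNA gene. Of 45629 loops in all, 2477 met the rule.

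The series asked how hyperosmotic stress changes contacts along chromosomes, and measured them by in situ Hi-C, which ligates DNA ends that lie close together in intact nuclei and counts the joined pairs. The 4 lists come from wild-type HEK293 cells and from HEK293 cells labelled eGFP-YAP, in which the Hippo pathway coactivator YAP is fused to green fluorescent protein, each untreated or in 200 mM sorbitol for 1 h. The labels describe 3 samples for each wild-type group and 4 for each eGFP-YAP group, and the design text adds 1 h of serum starvation before sorbitol for the eGFP-YAP cells. The labels name neither the promoter of the fusion nor whether the line is 1 clone, they speak of HEK293T cells in the growth protocol, and the lists of the 2 lines carry different source names, so line and source cannot be told apart. Each list is 1 pooled call per condition, so no difference between conditions has a replicate check or a p-value here, and the 95% intervals below cover counting error only, with loops taken as independent.

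At many loops in unstressed cells, cohesin extrudes DNA until it meets CTCF, a zinc finger protein bound to its motif, and the motifs at both anchors then usually point towards each other. Promoters and enhancers also meet without CTCF at both ends, through the factors and the transcription machinery bound to them. Sorbitol draws water out of the cell, which shrinks the nucleus and crowds its contents, and YAP has been reported to form condensates under such stress.

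The sequences shown first, read from hg38, are examples from named loops of what was counted at the anchors. The shares given below rest on all loops of this kind in each list. CTCF motif matches in anchors of the DLX3, DUSP28 and OPN5 loops are printed with the motif in capitals and 8 flanking bases on each side, 5′ to 3′ on the motif strand. The DLX3 loop was in all 4 lists, the DUSP28 loop in both sorbitol lists only, and the OPN5 loop in both control lists only.
DLX3 gene anchor, chr17:49998397-49998426, minus strand: tacaatcaCCACTAGATGGCGCcactcccc
DLX3 intergenic anchor, chr17:49861279-49861308, plus strand: acttgtagCCACCAGATGGCACcagcgcat
DUSP28 intergenic anchor, chr2:240230847-240230876, plus strand: cagatcttCCACCAGGGGGAAGggcagggg
OPN5 intergenic anchor, chr6:47631471-47631500, plus strand: ttaaatgaCCACTAGATGGCAGtcaaataa
The DLX3 pair had no mismatch to the motif, and its members point towards each other, the plus-strand match lying in the left anchor. With 1 mismatch the DLX3 gene anchor also held matches on both strands, and the intergenic anchor another plus-strand match. The loop therefore does not count among those with matches of a single strand in each anchor. The OPN5 match had 0 mismatches and the DUSP28 match 1, and the other anchor of either loop held no match. None of these 4 stretches overlapped an annotated exon or a protein-coding gene.

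The 250 bases before the gene start of a sorbitol-only loop (SMIM10L2A) and of a control-only loop (OPN5) are shown next with each CpG in capitals, because the looped promoters of the lists differed in CpG content.
SMIM10L2A promoter, chrX:135421694-135421943, plus strand: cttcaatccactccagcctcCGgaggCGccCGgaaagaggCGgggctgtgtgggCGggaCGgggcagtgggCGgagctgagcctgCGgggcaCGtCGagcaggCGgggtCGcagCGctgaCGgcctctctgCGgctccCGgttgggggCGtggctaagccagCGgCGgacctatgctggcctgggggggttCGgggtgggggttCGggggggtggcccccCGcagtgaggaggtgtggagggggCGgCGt
OPN5 promoter, chr6:47781732-47781981, plus strand: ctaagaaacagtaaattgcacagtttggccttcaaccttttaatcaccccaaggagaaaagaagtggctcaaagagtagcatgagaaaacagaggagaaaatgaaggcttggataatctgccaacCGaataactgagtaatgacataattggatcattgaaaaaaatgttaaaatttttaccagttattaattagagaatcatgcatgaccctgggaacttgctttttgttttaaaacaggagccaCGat
The SMIM10L2A stretch held 24 CpG and the OPN5 stretch 2. This contrast is not a rule for single loops, since the same stretch at DUSP28 (sorbitol-only) held 1 CpG and that at ASB6 (control-only) held 31.

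Sorbitol lists were much shorter than control lists. Wild-type cells had 15180 loops in the control list and 5906 in the sorbitol list, and eGFP-YAP cells 18966 and 5577. Read depth is not given in the sources used here, so depth could not be accounted for. List length is not a measure of depth alone, since the treatment differs between the lists as well. Results with the control list limited to the length of the sorbitol list are given for the share of these loops and for loops called again, and for the other results the part of list length was not tested.

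Loops from a gene start to intergenic DNA made up a larger share of the sorbitol lists than of the control lists. In wild-type cells 632 of 15180 control loops were of this kind, or 4.16% (95% interval 3.86 to 4.49%). In sorbitol the count was 439 of 5906, or 7.43% (6.79 to 8.13%). In eGFP-YAP cells the control list had 977 of 18966, or 5.15% (4.85 to 5.48%), and the sorbitol list 429 of 5577, or 7.69% (7.02 to 8.42%). The share was thus higher with sorbitol by 3.27 percentage points in wild type (95% interval of the difference 2.55 to 4.03) and by 2.54 in eGFP-YAP cells (1.80 to 3.33). With each control list limited by score to the length of the matching sorbitol list, the differences were 3.06 points (2.22 to 3.92) and 2.92 points (2.03 to 3.82). In absolute number these loops were fewer with sorbitol, 0.695 of the control number in wild type and 0.439 in eGFP-YAP cells, against 0.389 and 0.294 for all loops.

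The higher share lay almost wholly in loops whose intergenic anchor was close to a further gene start. Loops with the intergenic anchor 10 kb or more from every protein-coding start made up 3.38% of the wild-type control list and 3.74% of the sorbitol list, a difference of 0.363 points (-0.182 to 0.947). In eGFP-YAP cells the shares were 3.82% and 3.91%, a difference of 0.0863 points (-0.469 to 0.688). When the rule was applied to anchors widened by 5 kb on each side, so that a start just outside an anchor counted, the difference changed sign, to -0.823 points in wild type (-1.63 to 0.0186) and -0.779 in eGFP-YAP cells (-1.62 to 0.0999), and both of these intervals include 0.

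**Figure D1:**
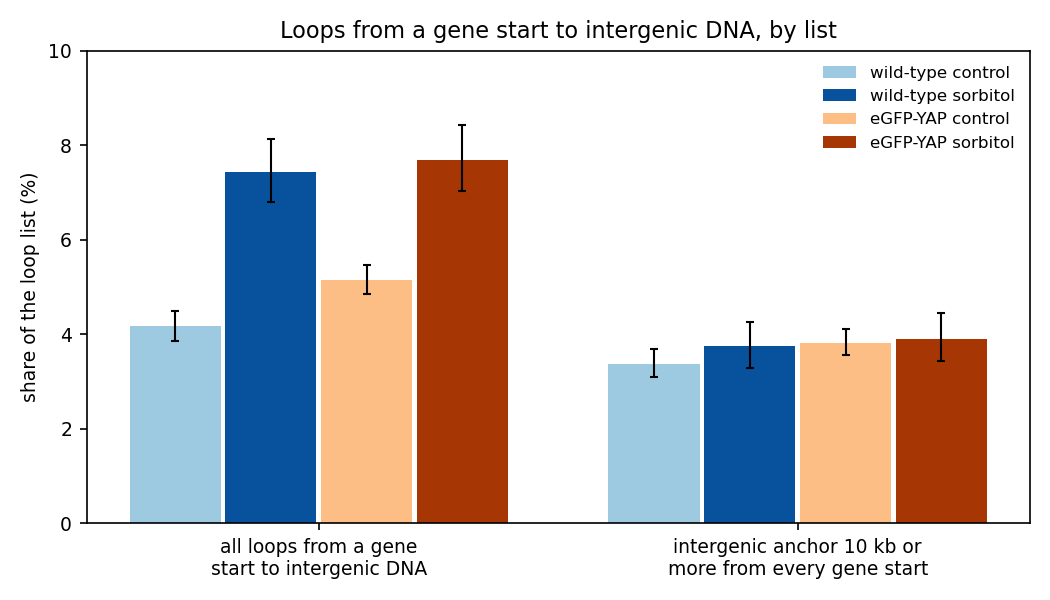
Share of each loop list (percent, bars, with Wilson 95% intervals) made up of loops from a gene start to intergenic DNA, for all such loops and for those whose intergenic anchor lay 10 kb or more from every gene start. Sorbitol bars are higher in the left group (7.43% against 4.16%, and 7.69% against 5.15%), while in the right group the 4 bars lie between 3.38% and 3.91%.

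The other loops with a gene start show how these loops sit among their kind. Loops between 2 gene starts numbered 5.46 times as many with sorbitol as in control in wild type and 3.19 times as many in eGFP-YAP cells. The ratios were 1.13 and 0.694 for loops from a gene start into a gene body, and 0.289 and 0.208 for loops with no gene start. Among loops with exactly 1 start anchor, the partner was intergenic in 40.7% of wild-type control loops and 29.6% of sorbitol loops. The same shares were 39.8% and 29.5% in eGFP-YAP cells. Over the genome, 54.7% of 5 kb bins without a gene start lay outside gene bodies, so an intergenic partner was the less common one in every list.

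Intergenic anchors of the sorbitol loops crowded around the starts of other genes. The median distance from the centre of the intergenic anchor to the nearest protein-coding start was 38.1 kb in the wild-type control list (33.1 to 45.9 kb) and 10.4 kb in the sorbitol list (8.25 to 13.8 kb). The eGFP-YAP medians were 27.4 kb (24.3 to 32.1 kb) and 10.6 kb (8.41 to 13.5 kb). Over all intergenic 5 kb bins the median was 170 kb. The sorbitol lists of both lines thus gave nearly the same distance, below either control list.

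The anchor centre lay within 10 kb of a start in 18.8% of wild-type control loops and 49.7% of sorbitol loops, and in 25.8% and 49.2% of the eGFP-YAP loops, against 5.597% of intergenic bins. Within 5 kb the shares were 6.96% and 31.4% in wild type and 10.7% and 31.5% in eGFP-YAP cells, against 1.94% of bins. The shortest of these loops spanned 35 kb, so a start within 10 kb could only be that of a gene other than the looped one. Loops with such an anchor numbered 218 in the wild-type sorbitol list and 119 in the control list, and 211 and 252 in eGFP-YAP cells. Gene ends showed no such difference between conditions at the 10 kb limit. Within it lay 18.2% of wild-type control and 19.6% of sorbitol anchors, and 20.2% and 18.6% of eGFP-YAP anchors. The share of all intergenic bins was 4.98%. The median distance to the nearest gene end was still shorter with sorbitol, at 39.0 and 27.5 kb in wild type, control first. In eGFP-YAP cells it was 34.5 and 27.3 kb. Nearness to starts was shared with other loops that begin at a gene start: the partner anchor in a gene body lay within 10 kb of a start in 24.5% of wild-type control and 64.2% of sorbitol loops, and in 30.1% and 61.7% in eGFP-YAP cells. Intergenic anchors of loops with no gene start differed less, at 11.2% and 17.1% in wild type and 13.7% and 19.8% in eGFP-YAP cells.

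**Figure D2:**
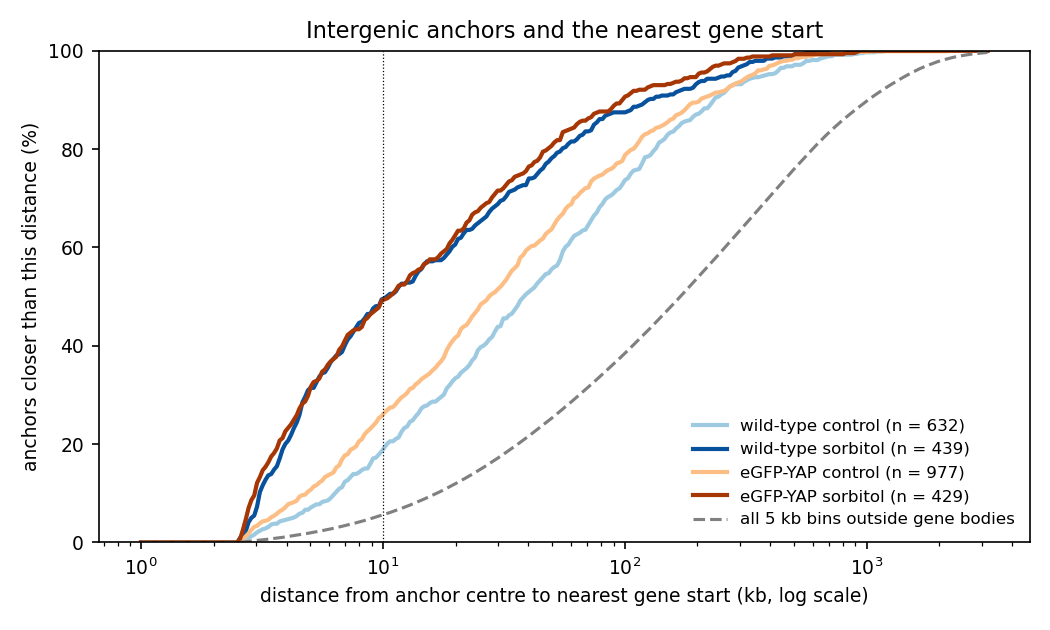
Cumulative share (percent) of intergenic anchors closer to the nearest protein-coding gene start than the distance on the x axis (kb, log scale), for the 4 lists and for all 5 kb bins outside gene bodies (dashed). The sorbitol curves run together and cross 10 kb (dotted line) at 49.7% and 49.2%, above the control curves at 18.8% and 25.8%.

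The gene at the gene anchor was seldom the one nearest to the intergenic anchor. It had the nearest start in 16.1% of wild-type control loops and 7.74% of sorbitol loops, and in 12.3% and 6.29% of eGFP-YAP loops. With anchors widened by 5 kb the wild-type shares were 18.5% (16.5 to 20.6%) and 15.7% (12.7 to 19.3%), whose intervals overlap, and the eGFP-YAP shares 15.1% and 7.85%. No other protein-coding start lay between the anchors in 39.7% and 20.5% of wild-type loops and in 31.5% and 24.0% of eGFP-YAP loops, control first. The intergenic stretch that held the anchor was also shorter with sorbitol, with a median of 61.3 kb against 109 kb in wild type and 60.8 kb against 87.9 kb in eGFP-YAP cells. The start of a long non-coding RNA gene lay in the intergenic anchor in 7.59% of wild-type control and 13.2% of sorbitol loops, and in 9.31% and 14.9% of eGFP-YAP loops, against 2.86% of intergenic bins.

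Span and direction of the gene differed little between conditions. Median spans were 205 kb and 210 kb in wild type and 215 kb in both eGFP-YAP lists. The transcribed part of the gene ran into the loop in 44.5% of wild-type control and 41.5% of sorbitol loops, a difference of -3.00 points (-8.97 to 3.03). It did so in 44.6% and 43.1% of eGFP-YAP loops, a difference of -1.503 points (-7.07 to 4.14). Gene anchors with starts on both strands, as at divergent gene pairs, were more frequent with sorbitol, at 10.5% against 4.91% in wild type and 10.5% against 7.16% in eGFP-YAP cells.

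With up to 1 mismatch and anchors as listed, CTCF motifs were less frequent at both ends of these loops in the sorbitol lists. Matches on either strand were counted, and a match is a description of the letters, not of bound protein. Gene anchors held a match in 29.7% of wild-type control and 21.9% of sorbitol loops, and in 36.4% and 24.5% of eGFP-YAP loops, while 17.2% of all bins with a gene start held one. Intergenic anchors held one in 29.4% and 22.6% of wild-type loops and in 39.3% and 30.3% of eGFP-YAP loops, against 7.71% of all intergenic bins. Neither anchor held a match in 51.1% of wild-type control and 60.8% of sorbitol loops, and in 42.6% and 56.2% of eGFP-YAP loops. Under 2 alternatives the order held in part. With no mismatch allowed, wild-type gene anchors held a match in 4.75% (control) and 4.78% (sorbitol). The order stayed at wild-type intergenic anchors (7.12% and 4.56%) and at eGFP-YAP gene (7.37% and 5.59%) and intergenic anchors (10.4% and 9.32%). With anchors widened by 5 kb, gene anchors held one in 55.4% and 50.2% in wild type and in 56.7% and 55.3% in eGFP-YAP cells. Widened intergenic anchors held one in 52.9% and 52.1% in wild type and in 58.7% and 61.4% in eGFP-YAP cells, where sorbitol was then the higher.

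Loops called in sorbitol alone had the lowest values at the gene anchor. Gene anchors of sorbitol loops without a control partner held a match in 19.8% (wild type) and 16.9% (eGFP-YAP), near the 17.2% of all start bins. Sorbitol loops that were also called in the control list held one in 31.3% (22.2 to 42.1%) and 43.8% (35.3 to 52.7%). For intergenic anchors the values were 20.6% and 24.0% without a control partner, above the 7.71% of intergenic bins, and 31.3% and 46.3% with one. Loops from a gene start into a gene body had the same order at the gene end, 31.3% in control and 20.9% in sorbitol in wild type and 39.6% and 26.0% in eGFP-YAP cells.

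Looped promoters were richer in CpG with sorbitol. Promoter windows ran from 250 bases before to 50 bases after the gene start, and were called CpG-rich when observed over expected CpG exceeded 0.6. Of the genes at gene anchors, 59.2% (55.2 to 63.0%) had such a promoter in the wild-type control list and 76.8% (72.8 to 80.3%) in the sorbitol list. The eGFP-YAP lists gave 64.7% (61.6 to 67.6%) and 76.0% (72.0 to 79.6%), against 58.3% of all protein-coding genes. The letters TATAAA, read on the gene strand, were present in 8.99% and 4.39% of the wild-type windows and in 7.51% and 6.05% of the eGFP-YAP windows, against 7.56% of all genes. Genes at the start of loops into a gene body had CpG-rich promoters in 63.3% and 79.0% in wild type and in 67.02% and 80.1% in eGFP-YAP cells.

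**Figure D3:**
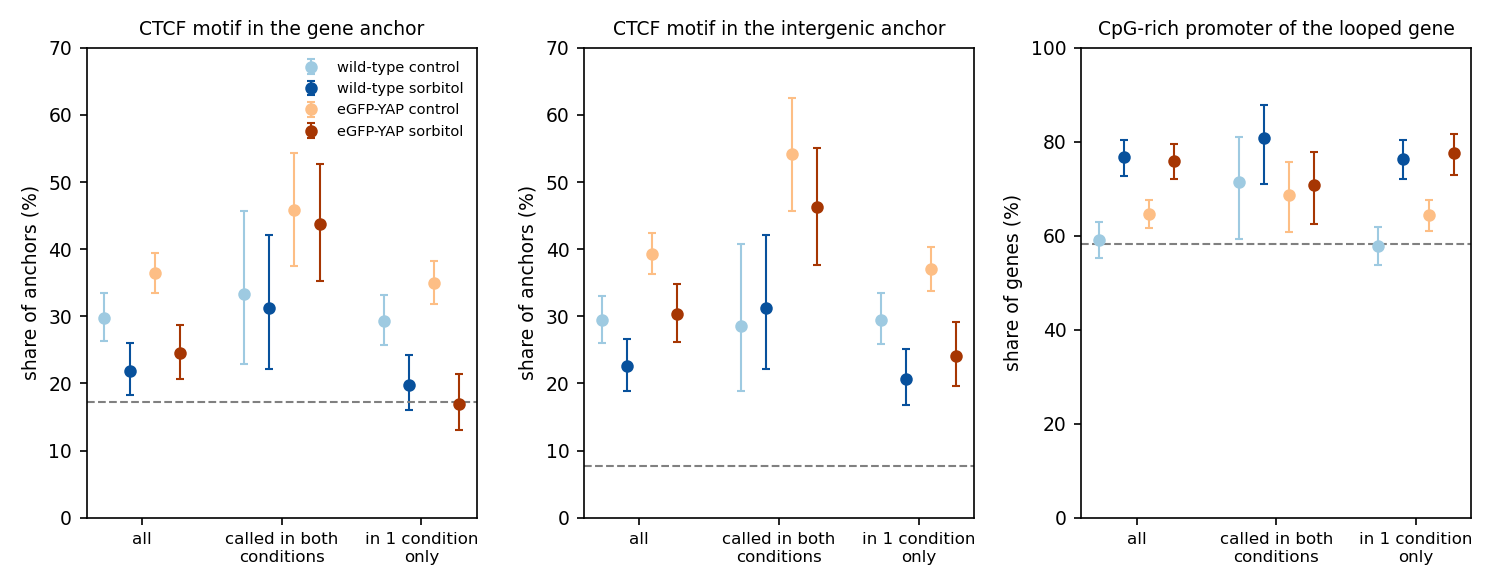
Share (percent, points with Wilson 95% intervals) of gene anchors and of intergenic anchors with a CTCF motif match, and of looped genes with a CpG-rich promoter, for all loops from a gene start to intergenic DNA in each list, for those called in both conditions of a line and for those called in 1 condition only. Dashed lines mark all bins with a gene start (17.2%), all intergenic bins (7.71%) and all protein-coding genes (58.3%).

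Few of these loops were called in both conditions. A loop counted as called again when some loop of the compared list had each anchor no more than 10 kb off. In wild-type cells 63 of 632 control loops were called again with sorbitol, or 9.97% (7.87 to 12.6%), against 7.81% of all control loops. In eGFP-YAP cells 131 of 977 were called again, or 13.4% (11.4 to 15.7%), against 9.28%. These shares moved with the matching and the lists compared: they were 2.06% and 3.48% for identical bins, 19.6% and 20.1% within 25 kb, and 15.5% and 19.5% with the control lists limited to the sorbitol list length. At or above the control median score the eGFP-YAP share was 5.603%. Seen from sorbitol, 80 of 439 wild-type loops had a control partner, or 18.2% against 20.1% of all sorbitol loops, and 121 of 429 eGFP-YAP loops did, or 28.2% against 31.6%. That left 359 wild-type loops (81.8%) and 308 eGFP-YAP loops (71.8%) without one. A matched partner was often of another kind. In 25 wild-type and 62 eGFP-YAP pairs both loops ran from a gene start to intergenic DNA.

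More loops recurred between the lines in control than in sorbitol lists. Of 632 wild-type control loops, 305 (48.3%) matched an eGFP-YAP control loop, against 40.2% of all control loops, and in reverse 346 of 977 (35.4%) did, against 32.2%. With sorbitol 132 of 439 (30.1%) matched, against 24.2%, and in reverse 116 of 429 (27.0%), against 25.7%. Of 569 wild-type loops found in control alone, 225 (39.5%) matched an eGFP-YAP loop found in control alone, against 33.5% of all such loops, and 253 of 846 (29.9%) matched in the reverse direction, against 27.3%. Of 359 wild-type loops found in sorbitol alone, 81 (22.6%) matched an eGFP-YAP loop found in sorbitol alone, against 15.5% of all such loops. In the reverse direction 72 of 308 (23.4%) matched, against 19.2%. With both partners running from a gene start to intergenic DNA, 104 loops were control-only in both lines and 25 were sorbitol-only in both lines. Another 15 were of this kind in both control lists and had a match in each sorbitol list, so they count as in all 4 lists. Their sorbitol matches could be of any kind.

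For loops found with sorbitol alone, each anchor was set against every anchor of that line's control list. The intergenic anchor lay within 10 kb of some control anchor in 51.5% of the 359 loops in wild type and 64.9% of the 308 in eGFP-YAP cells, against 14.8% and 15.6% of all intergenic bins. The gene anchor did in 43.5% and 48.7%, against 29.1% and 37.3% of all bins with a gene start. Over the anchors of all sorbitol-only loops, of any kind, the shares were 45.5% and 50.6%. Both anchors lay near a control anchor in 23.1% and 32.1% of the loops from a gene start to intergenic DNA, against 20.3% and 24.9% of all sorbitol-only loops, and neither did in 28.1% and 18.5%, against 29.4% and 23.8%. In control-only loops both anchors lay near a sorbitol anchor in 11.6% and 12.2%, against 5.80% and 6.21% of all control-only loops, and neither in 53.3% and 46.3%, against 61.2% and 59.7%. The control lists hold more loops, and the part of list length in these shares was not tested.

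The sorbitol-only loop ranked first by mean score percentile over the 2 sorbitol lists started at the divergent promoter of CBX3 and HNRNPA2B1. CBX3 encodes a heterochromatin protein and HNRNPA2B1 an RNA-binding protein of splicing and transport. The gene anchor was chr7:26200001-26205000 and the intergenic anchor chr7:25855001-25860000, 345 kb away, and its peak score, the caller's own value, stood at percentile 99.4 of the wild-type and 97.1 of the eGFP-YAP sorbitol list. The nearest start to the intergenic anchor was that of the transcription factor gene NFE2L3 at 295 kb. Neither anchor held a CTCF match. A loop over 330 kb from DUSP28, a dual-specificity phosphatase gene (chr2:240560001-240565000), reached chr2:240230001-240235000, where 4 motif matches lay, including the one printed above. It stood at percentiles 98.4 and 95.9.

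The next sorbitol-only loops were spread over other functions. SMIM10L2A (chrX:135420001-135425000), a small membrane protein gene with a close copy nearby, was tied over 420 kb to an anchor whose centre lay 11.5 kb from the start of SMIM10. DPYSL4, of axon guidance, had a loop of 265 kb at percentiles 91.5 and 96.8, and the forkhead factor gene FOXJ2 one of 210 kb at 96.1 and 86.5. SNAP47, a SNARE protein gene, had a loop of 60 kb at 74.4 and 78.03. A crowded gene anchor on chromosome 19 with the starts of U2AF1L4, PSENEN and LIN37, of splicing, gamma-secretase and cell cycle repression, reached over 185 kb to an anchor 2.86 kb from the start of LRFN3. SLITRK6, a neuronal membrane protein gene beside a gene desert, had a sorbitol-only loop of 915 kb and also a control-only loop of 890 kb, whose intergenic anchors lay 25 kb apart in wild type, so it counts as called in both conditions when matching allows 25 kb. The longest of the 25 loops was 940 kb, from the gene ENSG00000254536 on chromosome 10, at percentiles 84.7 and 97.8, the second above that of the CBX3 and HNRNPA2B1 loop in the same list. In eGFP-YAP sorbitol the matched anchor was a neighbouring bin without the start of ENSG00000254536. Of the 25, 10 had the intergenic anchor within 10 kb of a gene start and 17 had no CTCF match at either anchor.

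Among the control-only loops in both lines, OPN5, an opsin gene, had a loop of 150 kb from chr6:47780001-47785000 to chr6:47630001-47635000, at percentile 98.7 of the wild-type and 95.05 of the eGFP-YAP control list. ASB6, a ubiquitin ligase adaptor gene, had a loop of 145 kb at percentiles 96.4 and 96.2, and the metalloproteinase gene ADAMTS16 one of 275 kb at 99.6 and 92.0. The prostaglandin receptor gene PTGER3 had a loop of 520 kb at 91.2 and 99.7, with a CTCF match at the intergenic anchor. EFNB1, which encodes an ephrin ligand, had a loop of 395 kb at 99.1 and 91.5, and the mitochondrial carrier gene SLC25A31 one of 130 kb at 93.6 and 96.0. The longest, 1020 kb, began at ASB4. Of the 104 loops, 28 had the intergenic anchor within 10 kb of a gene start, 22 had a CTCF match at both anchors and 34 at neither.

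The 15 loops in all 4 lists had a median span of 135 kb, against 185 kb for the 25 sorbitol-only and 180 kb for the 104 control-only loops. Each is named by its gene anchor in wild-type control, and a matched anchor within 10 kb need not hold the same start. The loop at the complement gene C1QC spanned 220 kb. It stood at percentiles 99.6 and 99.5 of the control lists, and 87.6 and 64.4 of the wild-type and eGFP-YAP sorbitol lists. In both eGFP-YAP lists the matched anchor was a neighbouring bin that did not hold the C1QC start. The loop at PIWIL1, an Argonaute gene of the piRNA pathway, spanned 290 kb and stayed between percentiles 95.1 and 98.6 in every list. In eGFP-YAP sorbitol the matched anchor was a neighbouring bin without the PIWIL1 start. The homeobox gene DLX3, whose anchors carry the motif pair printed above, had a loop of 135 kb at 93.6 and 96.9 in control and at 58.3 and 81.3 with sorbitol. The loop at POLR3E, a subunit gene of RNA polymerase III, spanned 100 kb and stood at 87.9 and 95.9 in control and at 94.9 and 76.9 with sorbitol. In wild-type sorbitol the matched anchor was a neighbouring bin without the POLR3E start. The longest, 335 kb, was at PARP2, of DNA repair, and stood at 46.7 and 67.05 in control and at 90.5 and 94.2 with sorbitol. In every list but wild-type control the matched anchor was a nearby bin without the PARP2 start. The order of control and sorbitol therefore differed between these loops, and ranks come from lists of different length. C1QC, PIWIL1, DLX3 and POLR3E were chosen for high control percentiles, so a lower sorbitol percentile there is partly set by the choice and is not a result.

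**Figure D4:**
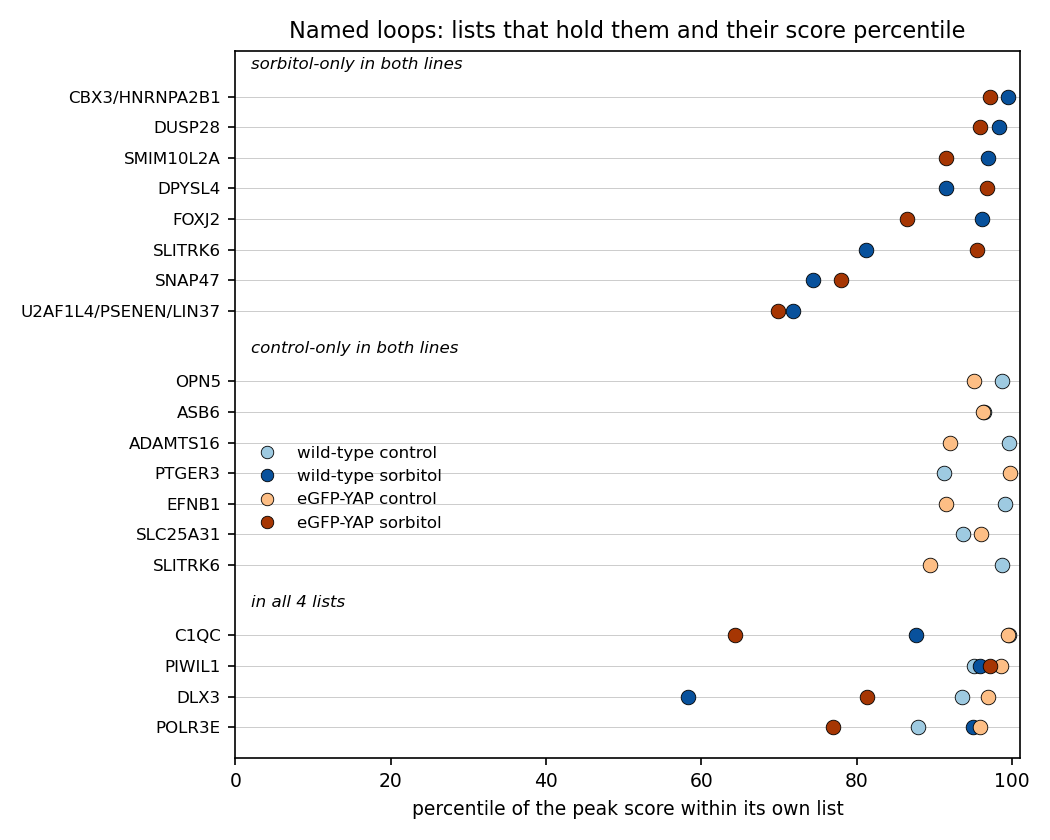
Percentile of the peak score within its own list (x axis) for the named loops, a row per loop and a point per list that holds it or a match within 10 kb, grouped by whether the loop was called in both sorbitol lists only, in both control lists only or in all 4 lists. A matched anchor need not hold the start of the named gene. In all 4 lists the PIWIL1 row stays between 95.1 and 98.6, while the DLX3 row ranges from 58.3 to 96.9.

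Genes with such a loop at their start numbered 612 in the wild-type control list, which is 3.06% of the 19970 protein-coding genes, and 478 or 2.39% in the sorbitol list. They numbered 959 or 4.8% and 479 or 2.4% in eGFP-YAP cells. Over the 4 lists 2051 genes were reached, of which 153 were in both control lists and neither sorbitol list, 37 in both sorbitol lists and neither control list, and 10 in all 4 lists. Only loops of this kind were counted, so a gene may have a matched loop of another kind in a list that lacks it. The control lists held more such genes, and the part of this in the counts was not tested. Most genes had 1 such loop, and 49, 21, 91 and 19 genes had more in the wild-type control, wild-type sorbitol, eGFP-YAP control and eGFP-YAP sorbitol lists.

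Among genes with several sorbitol loops were paralogous Groucho corepressor genes. TLE1 had 3 loops, all in wild-type sorbitol, of 295, 1235 and 1270 kb, and the first stood at percentile 99.4. TLE4 had 3 loops in wild-type sorbitol and 1 in eGFP-YAP sorbitol, and a loop over 315 kb was present in all 4 lists, at percentiles 66.1 and 19.02 in control and 88.4 and 21.4 with sorbitol. PCBP3, of the poly(C)-binding RNA proteins, had 4 loops, all in the eGFP-YAP sorbitol list, of 50 to 1300 kb. In 3 of these the intergenic anchor lay within 5 kb of another start, at 3.10 kb from CFAP410, 3.01 kb from LRRC3 and 2.67 kb from COL18A1.

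The genes named next were chosen for the number of their control loops. HOXD12, a limb patterning homeobox gene, had 6 loops of 505 to 850 kb, 3 in each control list and 0 with sorbitol, all towards the side away from its transcribed part. CALCRL, the calcitonin receptor-like gene, had 6 of 150 to 580 kb, 3 in each control list and 0 with sorbitol. SLITRK6 had 6 control loops of 430 to 895 kb and 3 sorbitol loops of 910 to 940 kb, all into the gene desert beyond its 3′ end.

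Of 28 listed target genes of YAP and its DNA-binding partners, the TEAD factors, 2 had such a loop in wild-type control (AMOTL2 and CCN1), or 7.14% against 3.06% of all genes. In wild-type sorbitol 2 did (F3 and IGFBP3), or 7.14% against 2.39%. In eGFP-YAP cells 6 did in control, or 21.4% against 4.8%, and 1 with sorbitol (IGFBP3), or 3.57% against 2.4%. These counts cover loops of this kind only. In eGFP-YAP control, AJUBA, FJX1, AMOTL2 and IGFBP3 each had a loop with a sorbitol match, and CCN1 and FOXF2 had none. The AJUBA and FJX1 matches, of 410 and 650 kb, had no gene start at either anchor. The F3 loop matched a wild-type control loop of 275 kb, also without a gene start. CCN1, a matricellular protein gene and a standard YAP target, had the same loop of 275 kb in both control lists, at percentiles 87.0 and 94.2, and none with sorbitol. AMOTL2, an angiomotin family gene that restrains YAP, had loops of 65 and 70 kb to neighbouring bins in the control lists, at 51.3 and 64.6, and a further loop of 95 kb in eGFP-YAP control, which matched an eGFP-YAP sorbitol loop from a gene start into a gene body. IGFBP3, which encodes an insulin-like growth factor binding protein, was looped over 1165 kb in wild-type sorbitol and in both eGFP-YAP lists, at percentiles 72.1, 91.1 (control) and 86.4 (sorbitol), and over 1250 and 1260 kb in the sorbitol lists. The loop of 1250 kb had a partner in wild-type control, which began in a bin without a gene start.

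The other lists held few such genes, and several of their shares were near those over all protein-coding genes, which were 3.06% and 2.39% in wild type and 4.8% and 2.4% in eGFP-YAP cells, control first. Only loops of this kind are counted, so a gene not counted in a list may still have a matched loop of another kind there. Of 100 developmental transcription factor genes, 11 had a loop in wild-type control and 9 with sorbitol, and 12 and 3 in eGFP-YAP cells, the last being 3% against 2.4%. SOX9 had loops of 420 and 720 kb in wild-type control and 1345 kb in eGFP-YAP control, inside the gene desert around it. MEIS1 had a loop of 145 kb in wild-type control and 3 of 780 to 1605 kb in eGFP-YAP control, with a loop of 265 kb in wild-type sorbitol. The loop of 145 kb also matched a wild-type sorbitol loop of 135 kb without a gene start, and the others had no match. SNAI2 had 1 and 3 loops of 335 to 745 kb in the control lists. Of 34 osmotic stress and cell volume genes 2 and 5 had a loop in the control lists and 2 and 1 with sorbitol, or 5.88% and 14.7%, and 5.88% and 2.94%. MAP2K3, a kinase upstream of p38, had the same loop of 230 kb in both control lists at percentiles 87.0 and 87.2. Of 31 immediate-early genes 1 and 4 had a loop in control and 3 and 2 with sorbitol, or 3.23% and 12.9%, and 9.68% and 6.45%, among them GADD45A with loops of 155 and 125 kb in the control lists. In wild-type sorbitol, the loops of 510 kb at JUN and 155 kb at KLF10 matched control loops of other kinds, of 515 and 155 kb. The FOSL2 loop and a KLF10 loop of 415 kb had no control match. Of 35 kidney developmental genes 6 and 5 had a loop in control and 1 and 1 with sorbitol, or 17.1% and 14.3%, and 2.86% in each sorbitol list. Of 78 ribosomal protein genes 0 and 2 had one in control and 3 and 4 with sorbitol, or 0% and 2.56%, and 3.85% and 5.13%. Of 35 genes of loop architecture and Polycomb, 1 and 3 had one in control and 1 and 1 with sorbitol, or 2.86% and 8.57%, and 2.86% in each sorbitol list. Of 35 Mediator and BET genes 0 and 2 had one in control and 0 and 1 with sorbitol, or 5.71% and 2.86% in the eGFP-YAP lists.

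Short motifs of AP-1 and TEAD factors did not separate the lists. The letters TGACTCA (AP-1), on either strand, were in 59.3% and 60.8% of wild-type intergenic anchors and in 56.9% and 57.1% of eGFP-YAP anchors, control first, against 52.3% of all intergenic bins. The letters CATTCCA (TEAD) were in 62.8%, 59.2%, 60.3% and 59.2% in the same order, against 60.7%. Each of these intervals overlapped between control and sorbitol.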

How the data were processed

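In situ Hi-C gave the 4 deposited loop lists, 1 per condition, each assigned by its name. Per the submitters' processing notes the builds were hg38 and GRCh38. Per the file headers the columns are those of the SIP loop caller. The aligner, the caller's settings, read depth and the samples pooled into each list are not given in the sources used here. The peak score is the authors' deposited score, with no fixed scale, used to rank loops within 1 list and, in 1 alternative, as a limit within a line. A second deposited column, the caller's probability of enrichment, is a fraction of at least 0.900 and was left unfiltered. No column was left without a group (0 columns).

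Gene starts and bodies came from GENCODE release 44 (19970 protein-coding genes), and sequence from hg38. Shares have Wilson 95% intervals, differences Newcombe intervals, medians order-statistic intervals and count ratios exact intervals. Motif and CpG content were read from the bases of each anchor. Steps were tested on simulated loops. Python 3.11.15, pandas 2.3.3, scipy 1.17.1 and pysam 0.24.0 were used.

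Named loops were those in both lines with both partners of this kind, ranked by mean score percentile, at most 1 per chromosome: the first 8 sorbitol-only, 8 control-only and 4 in all lists, the longest of each, the 4 genes with most loops per condition, and list genes in both lists of a condition. Chromosome 8 was left out of the ranking of loops. For loops in all lists the ranking used both control lists only, and their sorbitol matches could be of any kind. Of these, 1 control-only loop and 1 gene with several control loops are not reported here. Members and lists were chosen with earlier results of these data known. The other 18 of 32 samples, among them HCT116 cells and the time course, were not used here.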

Additional observations from a re-analysis of the deposited data

Results flagged for a closer look

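For 3 features of these loops the difference between sorbitol and control had opposite signs in the lines, which was not itself tested. The share of intergenic anchors within 10 kb of a gene end differed by 1.39 percentage points in wild type and by -1.52 in eGFP-YAP cells, and the share within 5 kb of a gene end by 0.226 and -0.928 points. Among loops with motif matches of a single strand in each anchor, the share of CTCF motif pairs that point towards each other differed by 12.8 points in wild type (-11.6 to 32.4) and by -7.25 in eGFP-YAP cells (-25.4 to 9.18). Those shares rest on 58, 21, 142 and 34 loops in the wild-type control, wild-type sorbitol, eGFP-YAP control and eGFP-YAP sorbitol lists. The 95% intervals of all 6 differences include 0.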

How the results depend on the processing

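Conditions are listed as wild-type control, wild-type sorbitol, eGFP-YAP control and eGFP-YAP sorbitol. No paired analysis was possible because each condition is 1 pooled list with no replicate numbers, and for the same reason no replicate could be left out. The difference in share between sorbitol and control changed sign, to -0.823 points in wild type (-1.63 to 0.0186) and -0.779 in eGFP-YAP cells (-1.62 to 0.0999), when both anchors were widened by 5 kb, because loops with a start just outside an anchor then leave the class and others enter it. The shares were then 8.78%, 9.69% and 8.91% in wild-type control, eGFP-YAP control and eGFP-YAP sorbitol, 74.7% and 61.0% of sorbitol loops had no control partner, and 11.2% of eGFP-YAP control loops were called again. With the intergenic anchor 10 kb or more from every start, an alternative chosen after seeing the data, the differences were 0.363 and 0.0863 points and the shares 3.38%, 3.74%, 3.82% and 3.91%, with 10.9% of eGFP-YAP control loops called again and 66.97% of eGFP-YAP sorbitol loops without a partner. With every transcript start counted, the shares were 6.83%, 10.7%, 7.85% and 10.6%, and 42.1% of wild-type sorbitol anchors were within 10 kb of a start. With no gene of any type at the second anchor the shares were 2.58%, 4.25%, 3.21% and 4.30%, the differences 1.67 and 1.10 points, and 55.4% of eGFP-YAP sorbitol anchors were near a start. In the upper 50% by score, 85.2% of wild-type sorbitol loops had no partner, 10.6% of eGFP-YAP control loops were called again and 23.1% of eGFP-YAP control anchors were near a start. At or above the control median score the wild-type sorbitol share was 8.70%, the wild-type difference 4.42 points, and 5.603% of eGFP-YAP control loops were called again. With the control list limited to the length of the sorbitol list, 15.5% and 19.5% of control loops were called again, 89.1% and 86.2% of sorbitol loops had no partner, and the eGFP-YAP control share was 4.77%. Matching on identical bins gave 2.06% and 3.48% called again and 97.0% and 92.1% without a partner, and matching within 25 kb gave 19.6%, 20.1%, 66.7% and 56.6%. A limit of 5 kb for nearness to a start, also added afterwards, gave 6.96%, 31.4%, 10.7% and 31.5%. Of the other values for these results, 67 stayed within the interval of the reported value, among them all with neighbouring loops merged and all without chromosomes 19 and 22. Of the values for span, direction, nearest gene and CTCF motif, 72 stayed within it and 36 did not. Merging altered only the wild-type sorbitol list, from 5906 to 5905 loops, so its values could hardly move. They are included in the 67 and the 72 and are no check of these results.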

Other observations

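A few genes had loops from their start to intergenic DNA on both sides. TLE4 in wild-type sorbitol reached 315 kb and 125 kb upstream and 325 kb downstream, past its 3′ end, with no other protein-coding start between the anchors of any of these loops, and its own start was the nearest to each intergenic anchor. In wild-type control the first pair of loops was called as well, together with a loop of 585 kb on the other side at percentile 97.4. That loop also had a match in wild-type sorbitol, which is not among the loops listed for TLE4. The sorbitol loop of 325 kb had no control match. At IGFBP3 no other start lay between the anchors of its loops of 1165 to 1260 kb, yet the nearest start to the intergenic anchors was that of TNS3, 400 to 495 kb beyond.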
